A study of Mus musculus with 2 samples.

Results

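The genes described are the 5 subunits of the transcription factor NF-κB (Nfkb1, Nfkb2, Rel, Rela and Relb) and 5 of its inhibitors and coregulators (Nfkbia, Nfkbie, Nfkbiz, Tnfaip3 and Bcl3). They were followed in nascent RNA from mouse bone marrow-derived macrophages (BMDMs). Every called transcript whose assigned gene name was one of these 10 was taken. That gave 70 of 43122 transcripts in the control library and 90 of 51365 in the IL-4 library. All 10 genes had a value in both libraries, among 8879 genes that did. The data came from global run-on sequencing (GRO-seq), in which polymerases already engaged on the DNA extend their RNA in isolated nuclei with bromo-UTP and the labelled RNA is pulled down, so that ongoing transcription is read. Bone marrow cells of wild-type C57BL/6 mice aged 8 to 12 weeks were differentiated for 6 days with L929 supernatant, a source of the growth factor M-CSF, and this was common to both groups. The treated cells received 20 ng/ml interleukin-4 (IL-4) for 1 hr, and the control cells received no IL-4. Duplicate run-on reactions were pooled into 1 library per condition, so there were no replicates, no spread between samples could be computed, and every difference below is a description of 2 libraries.

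NF-κB is a family of dimers that carry inflammatory signals to DNA. Inhibitor proteins with ankyrin repeats hold most dimers in the cytoplasm until the inhibitor is degraded, and the released dimers switch on cytokine, chemokine and survival genes. Several of those target genes encode NF-κB subunits and inhibitors themselves, which makes the system a feedback loop. IL-4, which acts through STAT6, drives the alternative polarization of macrophages.

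Promoter sequences of the genes were examined first. The RefSeq promoter table (GRCm38.p6) held windows for 7 of the 10 genes, 10 windows in all, and the 250 bases before each start site were searched on both strands for the κB consensus, the 10-base element that NF-κB dimers bind. A match was found in 7 of the 10 windows and in 5 of the 7 genes, whereas 3.9% of all 32851 promoter windows held one. The following 4 windows are shown because they belong to the gene that moved most upward (Rel), to a gene that lost most of its called transcription (Bcl3), and to a subunit and an inhibitor whose scores moved less (Nfkb2, upstream start site, and Nfkbia). Capitals mark the κB matches, and each sequence runs 5′ to 3′ on the gene's strand and ends at the base before the start site.
Rel (chr11:23770970-23771219, minus strand): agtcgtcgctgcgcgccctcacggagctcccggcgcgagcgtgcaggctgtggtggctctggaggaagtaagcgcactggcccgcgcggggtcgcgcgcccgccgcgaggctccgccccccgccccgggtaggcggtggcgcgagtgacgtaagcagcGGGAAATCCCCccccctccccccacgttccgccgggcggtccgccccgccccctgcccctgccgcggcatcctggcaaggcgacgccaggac
Nfkb2 (chr19:46304487-46304736, plus strand): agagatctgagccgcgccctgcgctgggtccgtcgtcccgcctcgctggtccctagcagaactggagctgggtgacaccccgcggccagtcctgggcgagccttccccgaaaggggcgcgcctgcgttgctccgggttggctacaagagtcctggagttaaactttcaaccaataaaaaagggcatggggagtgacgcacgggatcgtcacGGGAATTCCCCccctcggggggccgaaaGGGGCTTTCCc
Nfkbia (chr12:55492648-55492897, minus strand): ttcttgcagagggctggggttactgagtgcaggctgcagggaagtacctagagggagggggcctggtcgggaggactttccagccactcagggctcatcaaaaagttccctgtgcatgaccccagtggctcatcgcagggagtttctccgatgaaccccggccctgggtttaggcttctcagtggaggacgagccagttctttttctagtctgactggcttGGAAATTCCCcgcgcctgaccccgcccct
Bcl3 (chr7:19822756-19823005, minus strand): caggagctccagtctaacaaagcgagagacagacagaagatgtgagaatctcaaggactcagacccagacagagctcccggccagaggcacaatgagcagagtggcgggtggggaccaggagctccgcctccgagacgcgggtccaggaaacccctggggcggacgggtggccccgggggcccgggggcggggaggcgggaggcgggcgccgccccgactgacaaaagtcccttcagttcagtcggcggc
The match in Rel lay at positions -92 to -82 from the start site, where overlapping matches were counted once. In Nfkb2 the matches lay at -39 to -29 and at -11 to -2. The Nfkbia match, at -29 to -20, lay close to the start site. No letters matching the consensus were present in the Bcl3 window. Among the windows not printed, Nfkbie had a match at -106 to -97, the upstream Tnfaip3 window had matches at -125 to -116 and -12 to -3, the other Nfkb2 windows had 1 each, and the Rela window had none. STAT-type palindromes, written as TTC and GAA with 3 or 4 bases between, were rarer in these windows. The 3-base form occurred in the upstream Nfkb2 window (-148 to -140) and in 7.02% of all windows. The 4-base form occurred in the upstream Tnfaip3 window (-242 to -233) and in 5.85% of all windows. The windows of these genes held 46.4% to 77.6% G and C, against a median of 52.4% over all windows, and G and C content was not matched in these shares. A match is a description of letters and does not show that a factor bound there.

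The only measurement was a score per called transcript, a strand-specific segment of continuous run-on signal. The authors deposited it rounded to 1 decimal, and its scaling is not stated, so sequencing depth is unknown. The lowest score fell with segment length, from 0.7 for segments of at most 40 bp to 0.1 (control) and 0.0 (IL-4) for those over 600 bp, as a density per base would. The IL-4 library held 1.19 times as many segments, with 1.71 times the summed length and a median score of 0.2 against 0.3, while the summed product of score and length outside ribosomal and mitochondrial RNA was 1.06 times that of control. All 8 macrophage markers (among them Csf1r, Cd68 and Spi1) had transcripts in both libraries, with highest scores of 0.9 to 10.0 in control and 0.6 to 4.6 after IL-4. No marker of T cells, B cells, fibroblasts, erythroid or epithelial cells had one. Of 4 neutrophil markers, S100a8 had a score of 0.5 and 0.3 and S100a9 had 0.2 after IL-4 only. In such bulk libraries fewer transcribing cells and less RNA per cell cannot be told apart.

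A gene's value was the highest score among the transcripts carrying its name. The median gene was 0.769 times its control score after IL-4 (-0.38 on the log2 scale). Ratios are therefore given as log2 of IL-4 over control minus the median, called the centred log2 ratio. Each other measure or filter was centred on its own median. That log2 median was 0.15 for score times length summed, 0.06 for that sum beyond 1 kb and 0.46 for covered length. It was -0.42 for a gene's highest shared site, -0.32 over all shared sites and 0.0 for the segment nearest to the start site. The range in brackets is what rounding to 1 decimal allows and is not a replicate error. By this value Rel was higher after IL-4 and Nfkbiz lower by at least 2-fold, and the other 8 genes lay between. Of all 8879 genes, 8.06% were at least 2-fold higher and 8.62% at least 2-fold lower, so 1 of 10 in each direction is near the share of all genes. Over the whole range that rounding allows, Nfkbiz was past 2-fold and Rel was not, beside 3.67% of genes higher and 3.85% lower. The median of the 10 genes was -0.20, that of the subunits -0.04 and that of the inhibitors and coregulators -0.62, beside 0 for all genes by construction and a standard deviation over all genes of 0.78. The order of the 2 groups turned by same-strand overlap in place of the assigned name. The medians were then -0.30 for the subunits and -0.14 for the inhibitors and coregulators. The plot of highest scores shows the printed values before any centring.

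**Figure D1:**
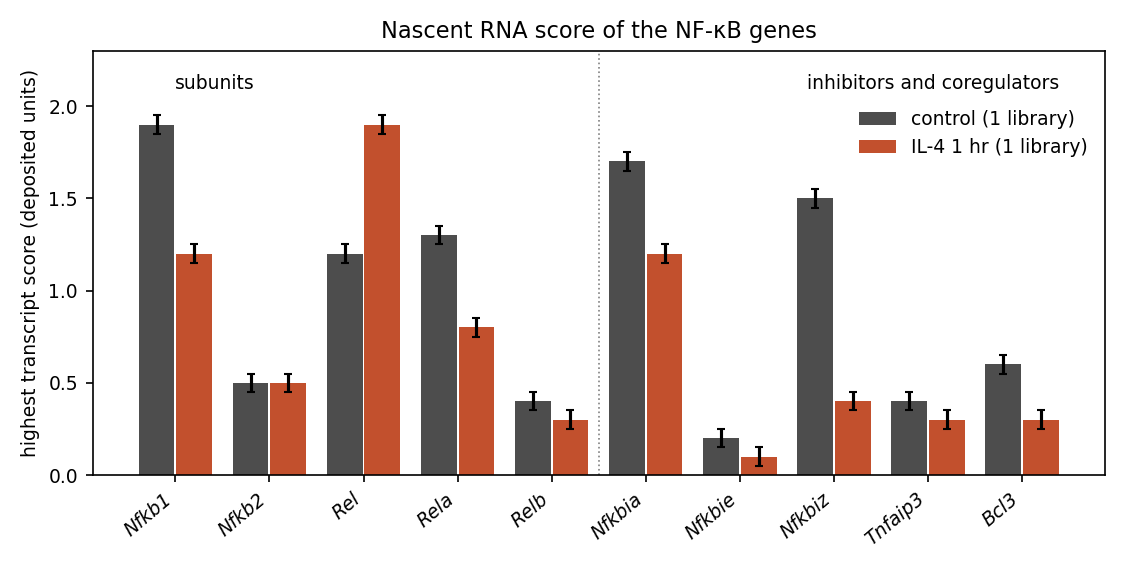
Highest transcript score (y axis, deposited units) of each of the 10 genes in the control library (grey) and the IL-4 library (orange), 1 library each. The thin lines span the rounding of the score (0.05 each way). Rel went from 1.2 to 1.9, Nfkbiz from 1.5 to 0.4, and Nfkb2 had 0.5 in both libraries.

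Rel encodes c-Rel, a subunit with a transactivation domain that is prominent in lymphoid and myeloid cells (ENSMUSG00000020275.9, mm10 chr11:23736847-23770970, minus strand). Its highest score was 1.2 in control and 1.9 in the IL-4 library (centred log2 ratio 1.04, rounding range 0.94 to 1.14). That value alone rested on a segment near the 3′ end of the GENCODE gene (chr11:23737693-23738071 after IL-4), which the files call intergenic and which overlaps a B1 SINE and a simple repeat. Elsewhere in the gene most differences had the same direction, but shared sites in intron 3 (chr11:23755470-23755683 in control) and downstream of the RefSeq gene (chr11:23740443-23740658) had 0.2 in both libraries, and a segment in exon 7 (chr11:23745298-23745628, 0.1) was called in control only. At the first exon, in the 5′ UTR, the segment at chr11:23770607-23770961 in control had a score of 0.7 and its counterpart at chr11:23770539-23770978 after IL-4 had 1.0. Its 5′ end lay 8 bp downstream of the annotated start site in control. The number of sense segments more than 1 kb downstream of the start site went from 5 to 18. These new segments, scored 0.1 to 0.5, were spread over introns 1 to 5, the last exon and the region beyond it. Among the 221 genes that also had 5 such segments in control, 11 genes (4.98%) had 18 or more after IL-4, and the median was 5.

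Same-strand segments covered 1761 bases, or 5.16%, of Rel in control and 6994 bases, or 20.5%, after IL-4. The raw ratio of covered length was 3.97, while the median gene's was 1.37. Weighted by score, the sense signal more than 1 kb downstream of the start site went from 413.5 to 2051.9 score-bases (score times length in bp, summed), a centred log2 ratio of 2.25. An equal or larger rise was seen in 5.79% of the 3814 genes with such signal in both libraries. Rel was therefore higher by its start-site segment, by its gene body and by its covered length. The call of at least 2-fold by the highest score did not survive without centring (log2 0.66) or with scaling to the library's summed signal (0.58). With segments of at least 150 bp the ratio was also 0.66. The highest Rel segments (209 bp in control, 379 bp after IL-4) stayed in that setting, so only the subtracted median differed. All 13 settings tried gave a ratio above 0.

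Nfkb1 encodes the precursor of the DNA-binding subunit that partners RelA in the classical dimer (ENSMUSG00000028163.17, chr3:135584655-135691547, minus strand). Its highest score was 1.9 in control and 1.2 after IL-4, in intron 5 (chr3:135658489-135658613 in control), a centred log2 ratio of -0.28 (-0.38 to -0.19). The next highest shared sites were also scored lower as printed. The site in intron 1 at chr3:135675345-135675410 went from 1.1 to 0.6, and the site in intron 17 at chr3:135599711-135599970 went from 0.9 to 0.5. The segment at the first exon (chr3:135691207-135691494), nearest to the start site, had 0.2 in both libraries. Even so, Nfkb1 carried 12 segments in control and 26 after IL-4, of which 16 had no counterpart in control. Covered length rose from 2.96% to 7.79% of the gene, with a centred log2 ratio of 0.94, and summed score-bases went from 1090.7 to 1897.9, with a centred log2 ratio of 0.65. The highest score and the covered length of Nfkb1 thus pointed in opposite directions, and neither passed 2-fold after centring. With segments of at least 150 bp, which leaves out the control segments of 125 and 66 bp at its highest sites, the centred ratio of the highest score turned to 0.42. Longer and weaker segments also marked the IL-4 library as a whole, and the part this played in Nfkb1 was not tested.

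**Figure D2:**
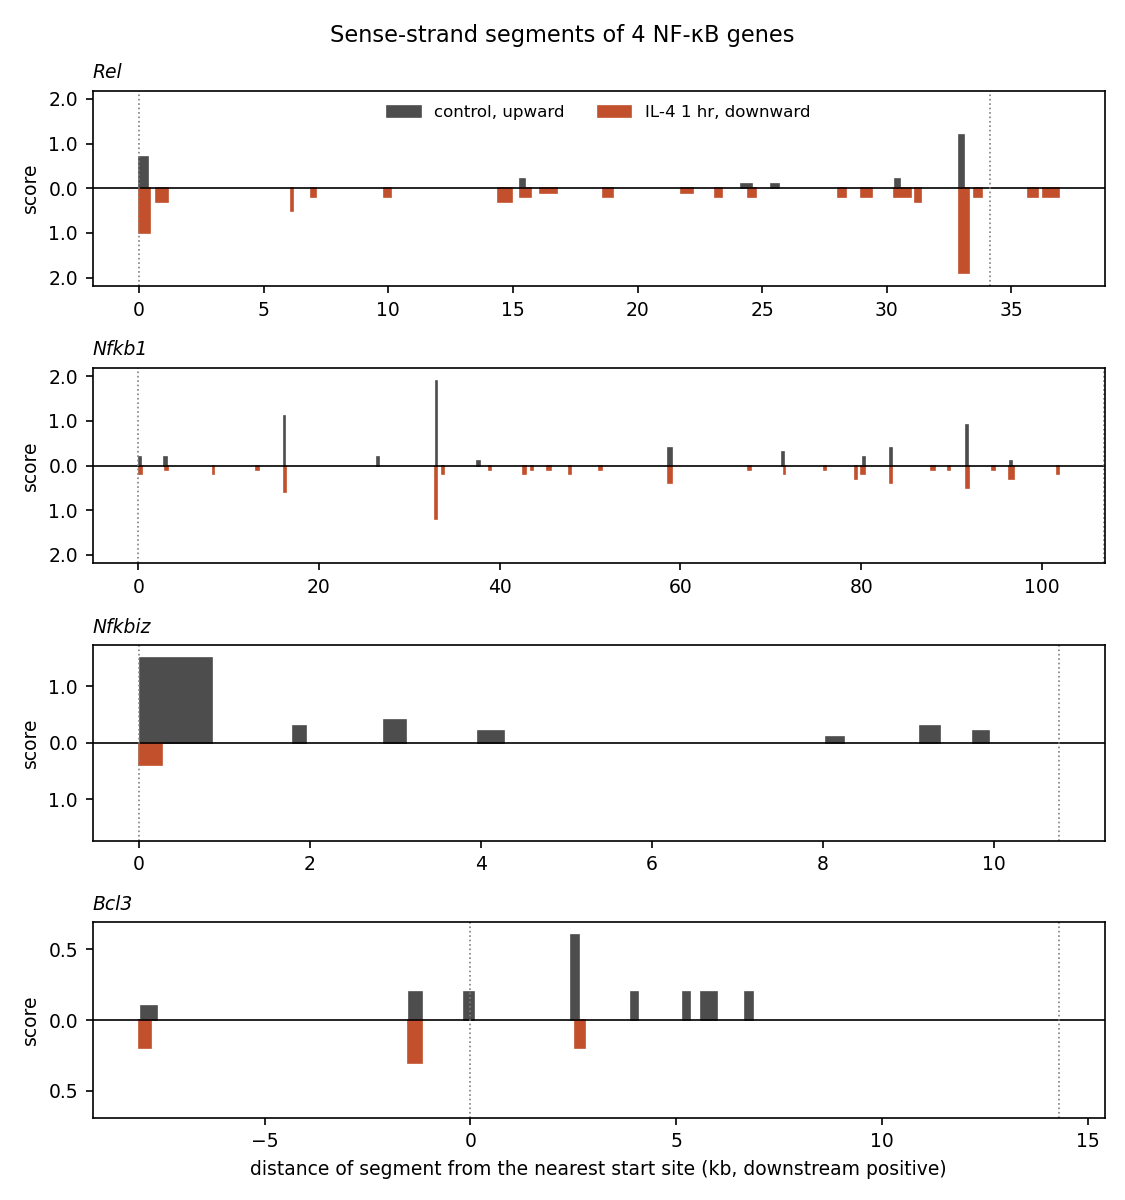
Sense-strand segments of Rel, Nfkb1, Nfkbiz and Bcl3 by distance from the annotated start site the files assign (x axis, kb, downstream positive). Control scores are drawn upward in grey and IL-4 scores downward in orange, each bar as wide as its segment, and dotted lines mark the start site and the end of the GENCODE gene. Rel had 6 sense segments in control and 20 after IL-4, whereas Nfkbiz had 7 and 1.

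Nfkb2 encodes the precursor processed in the non-canonical pathway (ENSMUSG00000025225.15, chr19:46304320-46312385, plus strand). Its highest score was 0.5 in both libraries, a centred log2 ratio of 0.38 (0.09 to 0.67), but at different start sites. At the upstream start site the sense segment at chr19:46304756-46304894 went from 0.5 to 0.3. Around the middle and last start sites the segment at chr19:46305720-46306257 in control had 0.3, and the one at chr19:46305666-46306046 after IL-4 had 0.5. Both were assigned to the last start site. Their 5′ ends lay at -211 (control) and -264 (IL-4) from it, nearer to the middle one. The upstream and the middle start site also had an upstream antisense segment in both libraries, scored 0.5 and 0.3 in control and 0.4 and 0.4 after IL-4. These antisense segments overlap AC114539.1, a gene that GENCODE places on the minus strand. By name the gene had 9 segments in each library, of which 4 lay inside Nfkb2 on its strand. Those 4 gave covered lengths of 17.5% and 16.4%. Among the rest was a segment in an intron of Gbf1 (chr19:46252613-46252701 in control), scored 0.4 in control and 0.2 after IL-4. A shift between start sites of this size rests on score steps of 0.2 in 1 library each.

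Rela encodes the main transactivating subunit, RelA (ENSMUSG00000024927.8, chr19:5637483-5648130, plus strand). The highest score, 1.3 in control and 0.8 after IL-4 (centred log2 ratio -0.32, -0.47 to -0.18), belonged to a segment of 101 bp on a B1 SINE in intron 8 (chr19:5644263-5644363). The first sense segment, in intron 1 in control (chr19:5637783-5638092) and in the first exon after IL-4 (chr19:5637610-5637921), was scored 0.6 and 0.3. The antisense segment upstream of the start (chr19:5636813-5637314 in control) was scored 0.1 and 0.2. It was the nearest to the start site in control, while the sense one was nearest after IL-4, so Rela's centred ratio of 1.58 by the nearest segment compares different strands. Signal beyond 1 kb was 335.4 and 329.1 score-bases, which is nearly the same value. Relb encodes the subunit that pairs with the processed Nfkb2 product (ENSMUSG00000002983.17, chr7:19606217-19629438, minus strand). Its highest score was 0.4 in control and 0.3 after IL-4 (centred log2 ratio -0.04, -0.47 to 0.38). That score was shared in control by a segment in intron 4 (chr7:19617106-19617180) and one in the 3′ UTR of the neighbouring gene Clptm1 (chr7:19633504-19633698), and after IL-4 it came from the latter site alone. A stronger segment inside Relb, in intron 5, carried the name of the neighbour Clasrp and had 0.7 in the control library and 0.4 in the IL-4 one. The segment nearest to the start site was in exon 1 in control (chr7:19629102-19629351, 0.1) and antisense upstream after IL-4 (chr7:19629519-19629681, 0.2). Neither Rela nor Relb moved by 2-fold in its highest score. Each passed 2-fold higher by the segment nearest to the start site. With its SINE segment left out by a minimum length of 150 bp, Rela was 2-fold lower (-1.0). That value is the printed ratio of its first sense segment, 0.6 to 0.3, with no shift from centring in that setting. Centred on the median of all shared sites, the same segment had -0.68.

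Nfkbiz encodes IκBζ, a nuclear ankyrin-repeat protein that works with NF-κB at a subset of inflammatory genes (ENSMUSG00000035356.17, chr16:55811375-55838899, minus strand). It was the gene of the 10 with the lowest ratio. Its highest score, at the start of the shorter transcripts, was 1.5 in control (chr16:55821289-55822130) and 0.4 after IL-4 (chr16:55821867-55822144), a centred log2 ratio of -1.53 (-1.77 to -1.31). The segment began 8 bp downstream of the assigned start site in control and was 842 bp long. After IL-4 it began 6 bp upstream (-6) and was 278 bp long. In control 6 further sense segments, scored 0.1 to 0.4, ran through introns and exons to the 3′ UTR. After IL-4 no segment was called anywhere else in the gene. Of 167 genes with 6 sense segments beyond 1 kb in control, 6 genes (3.59%) had none after IL-4. Covered length went from 7.89% to 1.01% of the gene and summed score-bases from 1598.7 to 111.2. The centred log2 ratio of that sum was -4.00, and 0.169% of the 8879 genes had a value as low. Nfkbiz was at least 2-fold lower in all 12 settings that gave it a value, over a range of -4.00 to -1.49. An uncalled segment means only that the signal did not reach the caller's threshold.

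Bcl3 encodes a nuclear coregulator that binds homodimers of the DNA-binding subunits (ENSMUSG00000053175.17, chr7:19808462-19822770, minus strand). Its highest score was 0.6 in control and 0.3 in the IL-4 library (centred log2 ratio -0.62, rounding range -1.0 to -0.27), short of 2-fold only after centring. The IL-4 value came from an intergenic segment upstream of the gene (chr7:19823937-19824261), where control had 0.2. Within the gene the site in intron 1 (chr7:19820115-19820309 in control) went from 0.6 to 0.2, with a centred log2 ratio of -1.26 (-1.79 to -0.82). Same-strand segments overlapping Bcl3 numbered 7 in control and 1 after IL-4. Covered length went from 10.2% to 1.82% of the gene, and signal beyond 1 kb from 300.4 to 52.0 score-bases. The centred log2 ratios of these measures were -2.94 and -2.59, and 0.76% and 2.33% of genes had values as low. The segment over the start site (chr7:19822660-19822900, score 0.2) and the upstream antisense segment (0.3) were called in control only. The direction turned in 1 setting, the segment nearest to the start site, which after IL-4 was the intergenic one (0.58), and 8 of 13 settings put Bcl3 at least 2-fold lower.

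Nfkbia encodes IκBα, the inhibitor that is degraded on stimulation and remade by NF-κB (ENSMUSG00000021025.8, chr12:55489410-55492647, minus strand). Its first segment was nearly identical in position in both libraries, chr12:55491989-55492584 in control and chr12:55491988-55492582 after IL-4, with scores of 1.7 and 1.2. The centred log2 ratio was -0.12 (-0.23 to -0.02). This was the most fully covered of the 10 genes, at 56.5% and 77.1%, and its covered length moved with the median gene (centred log2 ratio -0.01). The segment nearest to the start site, antisense and upstream, had 0.2 in both libraries (chr12:55492727-55493089 in control). Signal beyond 1 kb was 344.3 and 346.7 score-bases. No setting put Nfkbia past 2-fold, and its ratios ran from -0.61 to 0.00.

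Nfkbie, which encodes IκBε, was close to the lower limit of what was called (ENSMUSG00000023947.8, chr17:45555703-45563169, plus strand). Its segment at the first exon had 0.1 in both libraries (chr17:45555722-45555984 in control), and a segment in intron 1 (chr17:45557463-45557667, 0.2) was called in control only. The centred log2 ratio of -0.62 had a rounding range of -1.94 to 0.38 and so gave no direction. Segments inside the gene that carried the neighbour's name, Slc35b2, had 0.4 and 0.2 in control and 0.3 after IL-4. Tnfaip3 encodes A20, an enzyme that edits ubiquitin and ends NF-κB signalling (ENSMUSG00000019850.11, chr10:19000910-19015657, minus strand). The segment in intron 1 next to the start site had 0.4 in control (chr10:19014941-19015195) and 0.3 after IL-4 (chr10:19014982-19015316), a centred log2 ratio of -0.04 (-0.47 to 0.38). The 3′ UTR segment at chr10:19001330-19001707, also 0.4 in control, had a counterpart of 0.2 after IL-4. Covered length of Tnfaip3 went from 633 to 2386 bases, 4.29% to 16.2%, a centred log2 ratio of 1.46, while summed score-bases were 347.4 and 410.8 with a centred log2 ratio of 0.09. Its added coverage was of segments scored 0.1 to 0.2.

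**Figure D3:**
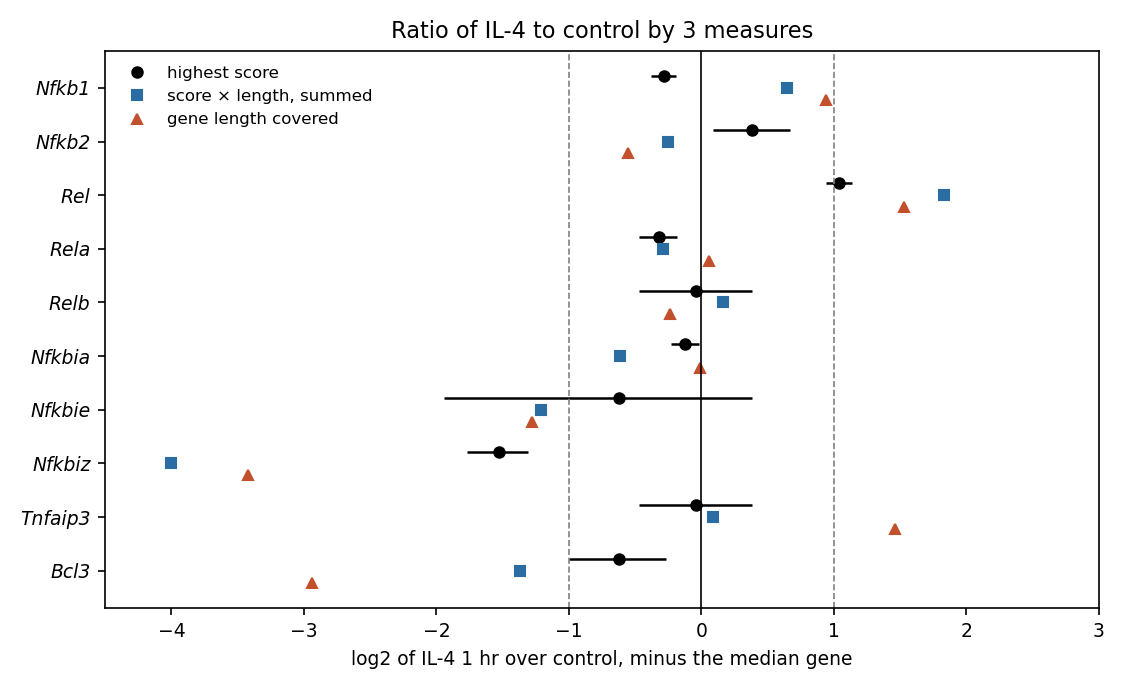
Log2 ratio of IL-4 over control minus the median gene (x axis) for the 10 genes (y axis) by highest score (black, with the rounding range as a line), summed score times length (blue) and gene length covered (orange). Dashed lines mark 2-fold. Rel lay above 1 and Nfkbiz below -1 by all 3 measures, and Bcl3 lay below -1 by 2 of them.

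The plot of ratios by measure sets these values side by side. By summed score-bases 1 gene (Rel) was at least 2-fold higher and 3 genes (Nfkbie, Nfkbiz and Bcl3) at least 2-fold lower, beside 17.2% and 16.9% of all genes. For Nfkbie that sum rested on segments scored 0.1 and 0.2. Its 1 sense segment beyond 1 kb was called in control only. Of 1712 genes with 1 such segment in control, 38.4% had none after IL-4. By covered length 2 genes (Rel and Tnfaip3) were at least 2-fold higher and 3 genes (Nfkbie, Nfkbiz and Bcl3) lower, beside 16.6% and 13.7% of 8158 genes. By signal beyond 1 kb, which 8 of the 10 genes had in both libraries, Rel was higher and Bcl3 lower, beside 20.3% and 20.0%. Nfkbiz and Nfkbie had no such signal after IL-4 and so gave no ratio there. By the highest sense site called in both libraries, Rel was higher and Nfkbiz and Bcl3 lower, beside 13.6% and 9.19% of 6911 genes. By same-strand overlap in place of the assigned name the same 3 genes passed, beside 8.26% and 8.4%. By the segment nearest to the start site, Rela and Relb passed 2-fold higher and Nfkbiz 2-fold lower, beside 11.0% and 27.7% of genes. With 10 genes a single gene is a large share, and these counts are read only against the shares of all genes beside them. Among the subunits Rel alone was 2-fold higher by summed score, covered length or signal beyond 1 kb, and no subunit was 2-fold lower by these measures. Among the inhibitors and coregulators Tnfaip3 was 2-fold higher by covered length, and none was by summed score or signal beyond 1 kb.

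Across the 10 genes the segments without a same-strand counterpart in the other library were 25 of 70 in control, or 35.7% (95% Wilson interval 25.5% to 47.4%), and 46 of 90 after IL-4, or 51.1% (41.0% to 61.2%). The shares over all segments were 37.4% and 48.1%. These intervals cover sampling of segments only, and neighbouring segments are not independent. Of the 46 segments called after IL-4 only, Rel and Nfkb1 held 16 each. Of the 25 called in control only, Nfkbiz and Bcl3 held 6 each. At a score of at least 0.3 the order turned, with 35 segments of these genes in control and 25 after IL-4, and so it did over all segments, with 23544 and 18528. At the 44 sites called in both libraries, 5 were at least 2-fold higher (11.4%) and 7 at least 2-fold lower (15.9%), beside 10.1% and 11.6% of all 26202 shared sites.

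Antisense segments starting upstream of the start site, the mark of divergent transcription, were present within 1 kb for 5 of the 10 genes in each library, beside 16.7% of named genes in control and 20.4% after IL-4. Bcl3, Nfkb2, Nfkbia, Rel and Rela had one in control, and those of Nfkb2 overlap the annotated minus-strand gene AC114539.1. After IL-4 Bcl3 had none and Relb had gained one. The Rel antisense segment began at chr11:23771178 in both libraries and went from 0.2 to 0.3 in score and from 179 to 454 bp in length. For Nfkbia the score was 0.2 in both. The scores of these antisense segments were all between 0.1 and 0.5.

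The rest of the pathway was taken from lists of kinases and adaptors, other inhibitors and target genes, 91 genes in all, of which 68 had a value in both libraries. At least 2-fold higher were 8 genes and at least 2-fold lower 1 gene, beside 8.06% and 8.62% of all genes, with a median centred log2 ratio of 0.11. This split depends on centring: without it 5 were higher and 10 lower, beside 5.98% and 24.3% of all genes, and with scaling to the library's summed signal 4 were higher and 10 lower, beside 2.52% and 24.6%. After centring, 3 of the 28 kinases and adaptors with a value were at least 2-fold higher and 1 lower, beside 8.06% and 8.62% of all genes. Irak2, a kinase of the interleukin-1 and Toll-like receptor pathway, went from 6.2 to 1.3 (centred log2 ratio -1.88), and its segments numbered 14 and 5. Tank, an adaptor of the TBK1 kinase, went from 1.5 to 0.6 (-0.94), short of 2-fold only after centring. Traf5, an adaptor of TNF receptor family members, went from 2.1 to 3.5 (1.12) and Ripk2, the kinase downstream of NOD receptors, from 0.3 to 0.5 (1.12, rounding range 0.74 to 1.52). Irak2 was the single listed gene past 2-fold lower after centring.

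After centring, 1 of the 14 other inhibitors with a value was at least 2-fold higher and none lower, beside 8.06% and 8.62% of all genes. Zc3h12a, an RNase that degrades inflammatory mRNAs, went from 0.4 to 0.9 (1.55), with 5 and 14 segments. Nkiras2, which binds IκB proteins, went from 0.6 to 0.9 (0.96). Nfkbid, another nuclear IκB protein, went from 0.5 to 0.2 (-0.94, rounding range -1.50 to -0.47), and Pias1 from 1.6 to 0.7 (-0.81). Of the 26 target genes with a value, 4 were higher and none lower after centring, beside the same shares of all genes. A further 13 of the 40 listed had no transcript in either library. Cd40, a costimulatory receptor, went from 0.5 to 1.5 (1.96), and its segments went from 3 to 17. Ier3, an immediate early gene, went from 0.8 to 3.1 (2.33), although its covered length did not rise more than that of the median gene (-0.46). Icam1, an adhesion molecule, went from 3.0 to 1.3 (-0.83) and Bcl2l1, which encodes the survival factor Bcl-xL, from 1.0 to 0.5 (-0.62). As printed both fell by at least 2-fold, and after centring neither did.

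**Figure D4:**
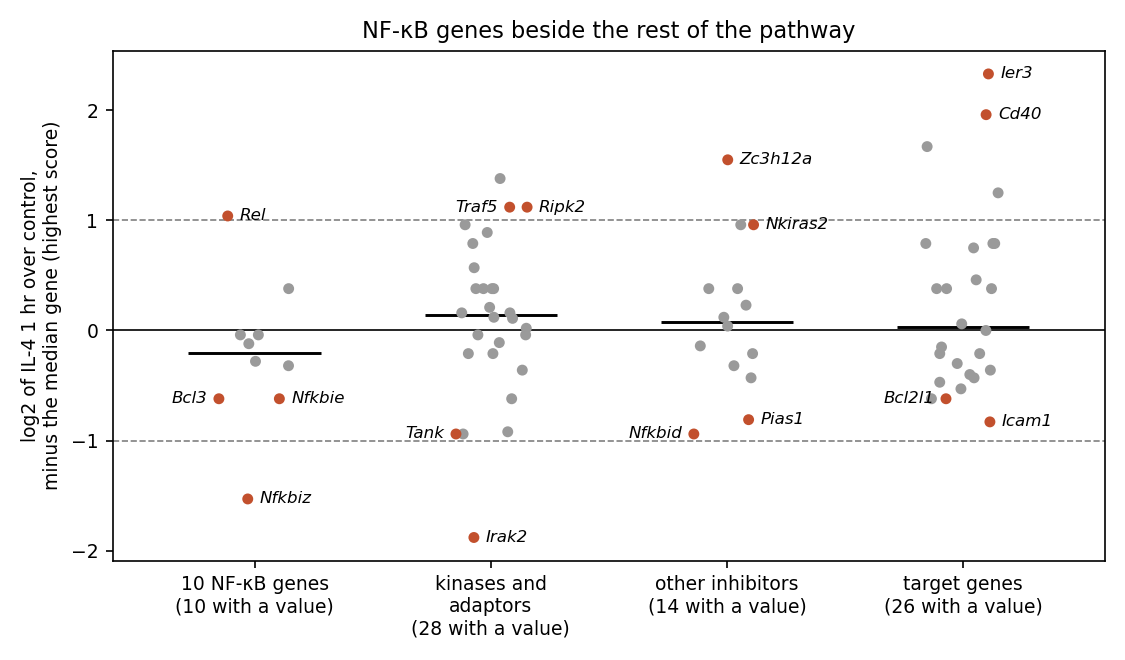
Centred log2 ratio of the highest score (y axis) for the 10 NF-κB genes and 3 lists of pathway genes (x axis), 1 dot per gene with a value in both libraries. Orange dots are labelled, black bars are list medians and dashed lines mark 2-fold. The medians of the lists lay between -0.20 and 0.14, and the values ran from -1.88 (Irak2) to 2.33 (Ier3).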

How the data were processed

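GRO-seq was performed on 2 samples of mouse BMDMs, and each was assigned to its group (control or IL-4 1 h) by its treatment label. Per the labels and the study's methods, the authors aligned reads to mm10 with BWA, dropped blacklisted regions and used HOMER in its GRO-seq style to call transcripts, library by library. The submitters' processing notes name BWA 0.7.10, SAMtools 0.1.19 and HOMER 4.2. The authors deposited 1 score per transcript, rounded to 1 decimal, whose normalization is not given in the sources used here. Read counts and depth are therefore unknown, and no counting interval was computed.

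Tables were analysed with Python 3.11.15, pandas 2.3.3, numpy 2.4.6 and scipy 1.17.1, and the code was tested on simulated data. Gene positions and strands came from GENCODE M21, and promoter windows from RefSeq (GRCm38.p6). Same-strand segments sharing at least 1 bp were matched between libraries. Distances were signed by the strand of the gene. A gene was called changed at a centred ratio of at least 2-fold. With 1 library per condition no test was possible. The members and lists were chosen with earlier results of these data known. All 10 members were named. Of each pathway list the 2 largest increases and 2 largest decreases with a score of at least 0.5 in 1 library were named, with ties broken by score and symbol. The highest segment of each member and the one nearest to its start site were also named. The measures of covered length, signal beyond 1 kb and shared sites were added after the data were seen. Many of the other alternatives are given with the limits. By same-strand overlap in place of the assigned name, the members had 58 segments in control and 73 after IL-4. Sequences of the called segments were not used here.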

Additional observations from a re-analysis of the deposited data

How the results depend on the processing

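Limits come first from the design: with 1 library per condition, no difference can be set against a replicate error, and treatment and library cannot be told apart. No paired analysis was possible because each group had 1 sample and no test was made. Scores are known only to 0.05, so ratios of scores of 0.1 or 0.2 carry wide rounding ranges, and the depth that limits what was called is unknown.

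Of 117 ratios of the 10 genes recomputed under alternatives, 63 stayed within the rounding range of the reported ratio and 54 left it. The sign turned for neither of the called genes, Rel and Nfkbiz. Apart from Nfkbia, every other gene had ratios on both sides of 0 across the settings. Those of Nfkb1 ran from -0.75 to 0.94 and those of Rela from -1.0 to 1.58. The number of genes at least 2-fold higher, 1 as reported, was 0 without centring, with library scaling or with segments of at least 150 bp, and 2 by the segment nearest to the start site or by covered length. The number at least 2-fold lower, 1 as reported, was 2 by same-strand overlap or shared sites, 3 by summed score-bases, without centring, with library scaling or by covered length, and 4 (Rela, Nfkbie, Nfkbiz and Bcl3) with segments of at least 150 bp, beside 20.7% of all genes. With segments of at least 150 bp, Rel (0.66), Nfkbie (-1.0), Nfkbiz (-1.91) and Bcl3 (-1.0) had the same ratios as without centring. Centring thus decides the split: without it, 0 were higher and 3 lower, beside 5.98% and 24.3% of all genes.

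For the 68 pathway genes, 8 higher and 1 lower as reported, the number higher (share of all genes) was 15 (17.2%) by summed score-bases, 5 (5.98%) without centring, 4 (2.52%) with library scaling, 13 of 49 (20.3%) by signal beyond 1 kb, 14 of 64 (13.6%) by shared sites and 21 (16.6%) by covered length. The number lower was 6 (16.9%), 10 (24.3%), 10 (24.6%), 4 (20.0%), 3 (9.19%) and 7 (13.7%) in the same order, 14 (27.7%) by the segment nearest to the start site, 4 (8.4%) by same-strand overlap, 5 (10.7%) without simple repeats and 6 of 63 (20.7%) with segments of at least 150 bp.

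Limited to scores of at least 0.3, the segments of the 10 genes numbered 35 in control and 25 after IL-4, and 20.0% in each library had no counterpart, beside 22.5% and 19.7% of all segments. With at least 50% of a segment required to be covered, 47.1% of the control and 63.3% of the IL-4 segments had none, beside 42.7% and 63.7% of all segments. The cause of these changes was not tested.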

Other observations

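Segments of run-on signal past the annotated 3′ ends were called for several of the 10 genes. Beyond the end of Rel, 2 sense segments were called after IL-4 only, at chr11:23734075-23734718 and chr11:23734921-23735307, each with a score of 0.2. Downstream of Nfkb2, in introns of the gene Psd on the opposite strand, control had segments of 0.3 and 0.2 (chr19:46313809-46314217 and chr19:46314393-46314736) and the IL-4 library had 0.1 and 0.2 (chr19:46313831-46314891 and chr19:46314931-46315165). Downstream of Nfkbia, control had segments of 0.3 and 0.1 (chr12:55487491-55487629 and chr12:55487895-55488096), which were not called after IL-4. A segment past the end of Tnfaip3 had 0.3 in control (chr10:18999314-18999627) and 0.1 after IL-4 (chr10:18999313-18999547).

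The upstream neighbourhood of Bcl3 held 2 intergenic sense segments in both libraries. The nearer, at chr7:19823929-19824259 in control, went from 0.2 to 0.3, and the farther, at chr7:19830368-19830747 in control on a DNA transposon, went from 0.1 to 0.2. Inside Bcl3, antisense segments in intron 2, where GENCODE places the antisense gene Gm16174, had 0.3 in control (chr7:19816812-19817019) and 0.1 each after IL-4 (chr7:19816612-19816836 and chr7:19817138-19817813).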
